A study of Mus musculus with 9 samples.

Results

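Genes of the NF-kB pathway were followed in cultured mesenchyme of the mouse small intestine after hedgehog treatment. The set was made of 37 genes, chosen by name as NF-kB subunits, inhibitors, kinases, TNF receptor adaptors and classic targets outside the chemokines and interleukins. A gene was measured where a probe set carried its symbol alone, which held for 32 of the 37 with 71 probe sets, out of 18193 genes and 34945 single-symbol probe sets. Nfkb1, Chuk, Ripk1, Ripk2 and Traf3 were not analysed here. The members fell into 6 roles, with 4 subunits, 9 inhibitors and restraining proteins, 6 kinases, 3 genes for a ligand and its receptors, 6 adaptors and survival proteins and 4 effector targets.

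NF-kB is a family of dimeric transcription factors that inhibitor proteins of the IkB class hold in the cytoplasm. Signals from TNF receptors, Toll-like receptors and the interleukin 1 receptor reach an IkB kinase complex through TRAF adaptors and RIPK or IRAK kinases, the inhibitor is degraded, and the dimer enters the nucleus. Among the genes it then switches on are those of its own inhibitors, so the inhibitor transcripts are at once parts and targets of the pathway. In the gut the pathway is best known for inflammatory responses of macrophages, stroma and epithelium to microbial products.

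All groups came from C57Bl/6J embryos at E18.5. Small intestine was freed of epithelium, and the mesenchyme was kept on collagen for 48 h, in DMEM to which serum (FBS, 10%) and Hepes (1%) had been added. Cells were then treated for 24 h with Vehicle as the control, with Sonic hedgehog (Shh) or with Indian hedgehog (Ihh), both ligands that gut epithelium secretes and mesenchyme receives. Neither the ligand doses nor the composition of the control solution is stated in the sources used here. From 6 wells per treatment, 3 samples were made by random pooling, so the 3 arrays of a group are pools of wells and the p-values measure the spread between pools.

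The labelled tissue carried its defining transcripts, with Pdgfra, a receptor of mesenchymal cells, at 11.73 to 12.06 log2 and Col3a1, a fibrillar collagen, at 13.14 to 13.43 on the 9 arrays. It also carried macrophage transcripts, with Csf1r, the receptor for the macrophage growth factor, at 12.003 to 12.35. Remaining epithelium varied between pools of every group, with Cdh1, the epithelial cadherin, at 4.71 to 8.28 on the Vehicle arrays and 4.94 to 8.37 on the treated arrays. Array medians lay between 5.87 and 5.92 log2. Ptch1, a hedgehog receptor that the pathway itself induces, was at 9.06 to 9.25 with Vehicle and 10.35 to 10.98 with the ligands. In a mixed culture, fewer cells of a type and less RNA per cell cannot be told apart.

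Since the members include genes that NF-kB proteins themselves induce, promoters are shown first for the members past the threshold that hold a match to the kappa B consensus, the degenerate motif that NF-kB dimers bind. The 250 bases before each annotated start were searched on both strands in RefSeq's promoters of GRCm38.p6. The table held 27 of the 32 members. A match lay before at least 1 start of 10 of these 27 genes (37.0%), against 2225 of 27025 genes in the whole table (8.23%). Many genes have several starts, and a match is a description of letters and not a shown binding site. Of the 6 members past the threshold with a promoter in the table, 2 held a match (33.3%), and of the 21 others 8 did (38.1%).

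The members past the threshold with a match were Nfkb2 and Sod2. Nfkb2 has 3 annotated starts and a match before each of them, of which the most upstream start, with 3 matches, is printed. Nfkbia is added for comparison, chosen after its values were seen, since its probe sets gave different answers. Capitals mark the kappa B matches, 5′ to 3′ on the strand of the gene. The windows lie at chr19:46304487-46304736 on the plus strand (Nfkb2), chr17:13007589-13007838 on the plus strand (Sod2) and chr12:55492648-55492897 on the minus strand (Nfkbia).
Nfkb2: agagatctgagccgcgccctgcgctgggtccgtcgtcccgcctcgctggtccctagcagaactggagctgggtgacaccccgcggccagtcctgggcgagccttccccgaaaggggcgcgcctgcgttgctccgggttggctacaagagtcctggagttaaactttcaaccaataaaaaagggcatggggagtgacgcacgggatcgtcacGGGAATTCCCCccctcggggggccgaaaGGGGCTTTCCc
Sod2: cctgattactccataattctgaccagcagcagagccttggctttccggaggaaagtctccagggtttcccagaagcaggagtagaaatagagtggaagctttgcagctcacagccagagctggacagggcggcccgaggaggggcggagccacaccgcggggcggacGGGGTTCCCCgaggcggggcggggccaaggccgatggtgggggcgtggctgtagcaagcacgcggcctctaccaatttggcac
Nfkbia: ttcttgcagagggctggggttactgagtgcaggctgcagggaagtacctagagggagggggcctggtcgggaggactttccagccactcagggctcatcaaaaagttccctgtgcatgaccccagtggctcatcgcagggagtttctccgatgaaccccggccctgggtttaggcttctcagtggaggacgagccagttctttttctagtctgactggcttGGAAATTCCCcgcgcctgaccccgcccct
In the Nfkb2 window 2 overlapping matches began 39 and 38 bases before the start, and another, GGGGCTTTCC, began 11 bases before it. The single matches of Sod2 and Nfkbia began 83 and 29 bases before their starts.

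The main comparison set the 6 arrays of both ligands against the 3 Vehicle arrays and asked which members respond to hedgehog signalling. Of the 32 members 7 fell and 0 rose (limma, adjusted p under 0.05 over all 18193 genes). Of all genes 1.51% passed this threshold, 1.07% lower and 0.434% higher. The members that fell were Sod2, Irak3, Nfkbiz, Ikbke, Bcl3, Tnfrsf1b and Nfkb2, by 1.21-fold to 2.72-fold. The median difference over the 32 members was -0.16 log2, against 0.00 over all genes, and 28 of the 32 differences were below 0, against 49.5% of all genes. On 13 members every treated array lay below every Vehicle array, against 3.80% of all genes, and on 0 members every treated array lay above, against 2.67%. Among these 13 the gap was as small as 0.003 log2, for Tnip1. At an unadjusted p under 0.05, 18 members lay lower and 1 higher, against 8.41% and 5.25% of all genes. Without Vehicle 1 or Vehicle 2 the count fell to 4 members, which were Nfkbiz, Irak3, Ikbke and Sod2 in both cases.

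**Figure D1:**
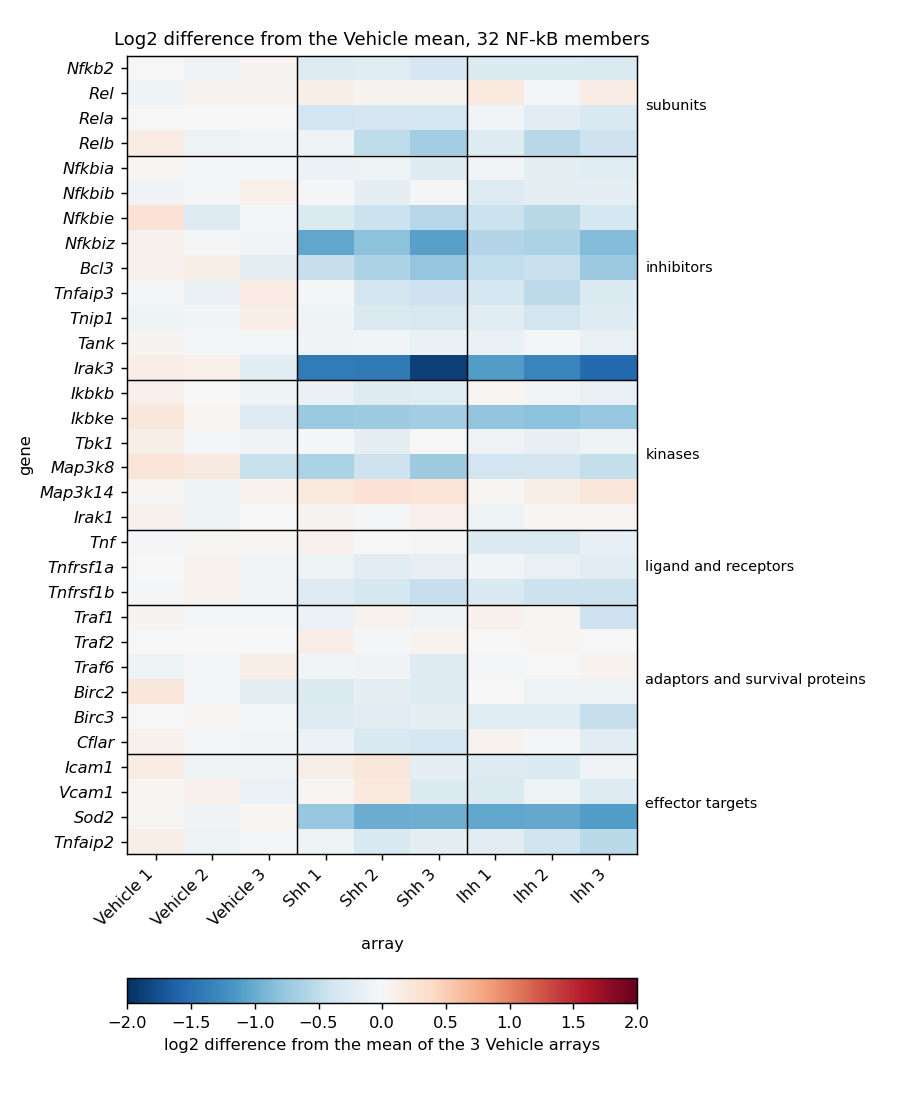
Log2 difference of each of the 32 members (rows, grouped by role) from the mean of the 3 Vehicle arrays, on each of the 9 arrays (columns); blue is lower and red is higher. Irak3, Sod2, Nfkbiz and Ikbke are blue on all 6 treated arrays, while Irak1 and Traf2 stay near 0.

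Of the 4 subunits measured, 1 fell, against 1.07% of all genes. Nfkb2 encodes the precursor p100, which is processed to the p52 subunit of the non-canonical pathway. It was at 7.71, 7.62 and 7.76 log2 on Vehicle 1 to 3, at 7.44, 7.46 and 7.36 on Shh 1 to 3 and at 7.42, 7.42 and 7.40 on Ihh 1 to 3. The 6 ligand arrays were all under the lowest Vehicle array, and the change was -0.28 ± 0.05 log2 (SE, limma adjusted p = 0.0259). Its call was lost when any 1 of Vehicle 1, Vehicle 2, Vehicle 3, Shh 3, Ihh 2 or Ihh 3 was left out (adjusted p up to 0.109). The dimmer probe set of the gene differed by -0.06, and the mean of both probe sets by -0.17 (adjusted p = 0.0741).

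Rela encodes p65, the main activating subunit of the canonical pathway. It was at 9.55, 9.55 and 9.54 log2 with Vehicle, at 9.16, 9.22 and 9.19 with Shh and at 9.48, 9.33 and 9.24 with Ihh. The groups did not overlap, the Shh arrays were the lowest, and the Vehicle arrays spanned little (SD 0.01, n = 3). Rela differed by -0.27 ± 0.06 for both ligands (adjusted p = 0.0507), just short of the threshold. Rela passed it in 5 of 8 other settings, among them median centring and the filter on dim genes, but not with a replicate block. Of the 9 fits without 1 array it passed in 1, that without Ihh 1. Over all alternatives the adjusted p ranged from 0.0117 to 0.19.

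Relb encodes the partner of p52. It was at 7.05, 6.79 and 6.84 log2 with Vehicle, at 6.80, 6.38 and 6.19 with Shh and at 6.63, 6.34 and 6.48 with Ihh. Shh 1 lay within the Vehicle range and the other treated arrays below it, with a difference of -0.42 ± 0.12 (adjusted p = 0.151). Relb passed the threshold in 1 of the 9 fits without 1 array, that without Shh 1. Of 9 other settings it passed in 2, array weights and the replicate number as a block. Over all alternatives its adjusted p ranged from 0.0381 to 0.466. Rel encodes c-Rel, the subunit best known from lymphocytes. It was at 5.15, 5.29 and 5.29 with Vehicle, at 5.37, 5.29 and 5.29 with Shh and at 5.44, 5.20 and 5.38 with Ihh, below the array medians throughout. The groups overlapped, and the difference was 0.09 with a 95% confidence interval of -0.06 to 0.23 (adjusted p = 0.63), in a range where low values are compressed towards background.

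The inhibitors and restraining proteins had the lowest median difference of the 6 roles, at -0.33 log2, with no test between roles. Of 9 measured, 3 fell and 0 rose, against 1.07% and 0.434% of all genes. All 9 differences were below 0, against 49.5% of all genes. On 6 of the 9 no ligand array reached the lowest Vehicle array, against 3.80% of all genes. The list holds cytoplasmic inhibitors, nuclear cofactors of the IkB class and proteins that damp receptor signalling.

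Irak3 encodes IRAK-M, an inactive kinase of the IRAK family that damps Toll-like receptor signalling and is known mainly from macrophages. It was at 8.09, 8.05 and 7.74 log2 with Vehicle, at 6.57, 6.55 and 6.10 with Shh and at 6.85, 6.64 and 6.41 with Ihh. The lowest Vehicle array stood 0.89 log2 above the highest treated array. Irak3 fell by 1.44 ± 0.13 log2, or 2.72-fold (adjusted p = 0.000622), the largest change among the members measured. Its dimmer probe set, below the array medians on 8 of the 9 arrays, differed by -0.68 (adjusted p = 0.0544 when tested singly).

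Nfkbiz encodes IkB-zeta, a nuclear member of the IkB class that works as a cofactor on secondary response genes. It was at 10.92, 10.79 and 10.78 log2 with Vehicle, at 9.79, 10.00 and 9.74 with Shh and at 10.25, 10.20 and 9.96 with Ihh. All treated arrays were lower, and the change was -0.84 ± 0.08 log2, or 1.79-fold (adjusted p = 0.000868). Its 3 probe sets changed by -0.84, -0.83 and -0.71, each past the threshold when tested singly. Bcl3, another nuclear IkB protein, which pairs with p50 and p52 homodimers, was at 8.44, 8.48 and 8.17 with Vehicle, at 7.91, 7.73 and 7.59 with Shh and at 7.88, 7.92 and 7.63 with Ihh. The groups did not overlap. Bcl3 fell by 0.59 ± 0.10 log2 (adjusted p = 0.0211), but not when Vehicle 1, Vehicle 2 or Shh 2 was left out (adjusted p up to 0.114).

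Nfkbia encodes IkB-alpha, the inhibitor whose resynthesis ends a canonical response. On its brightest probe set, the one used for the gene, it was at 12.33, 12.27 and 12.27 log2 with Vehicle, at 12.17, 12.19 and 12.04 with Shh and at 12.24, 12.09 and 12.05 with Ihh. The groups did not overlap but lay close, and the difference was -0.16 ± 0.06 (adjusted p = 0.249). The gene has 5 probe sets, all with differences below 0, and 3 of the 4 others passed the threshold when every probe set was tested singly, at -0.30, -0.44 and -0.43 (adjusted p = 0.0426, 0.0169 and 0.0122). Among these, the probe set at 10.38, 10.38 and 10.51 with Vehicle was at 10.09, 9.88 and 9.96 with Shh and at 10.06, 10.04 and 9.94 with Ihh. The mean of the 5 probe sets changed by -0.32 (adjusted p = 0.0197), so whether Nfkbia was called depended on the probe set.

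Tnfaip3 encodes A20, a ubiquitin-editing enzyme that shuts off TNF receptor signalling. It was at 8.0, 7.88 and 8.19 log2 with Vehicle, at 7.98, 7.65 and 7.62 with Shh and at 7.67, 7.49 and 7.75 with Ihh. Shh 1 lay within the Vehicle range, the 5 other treated arrays lay below it, and the difference was -0.33 ± 0.10 (adjusted p = 0.162). Its dimmer probe set differed by -0.04 (adjusted p = 0.905 when tested singly). Over all alternatives the adjusted p of Tnfaip3 ranged from 0.0762 to 0.377. Its partner Tnip1 and the inhibitor Nfkbie lay below Vehicle on all treated arrays, but by gaps of only 0.003 and 0.03 log2. Their differences were -0.26 and -0.44 (adjusted p = 0.125 and 0.0951). Nfkbib, a second cytoplasmic inhibitor, differed by -0.14 (adjusted p = 0.318), and Tank, which holds TBK1 and TRAF proteins together, by -0.09 (adjusted p = 0.465).

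**Figure D2:**
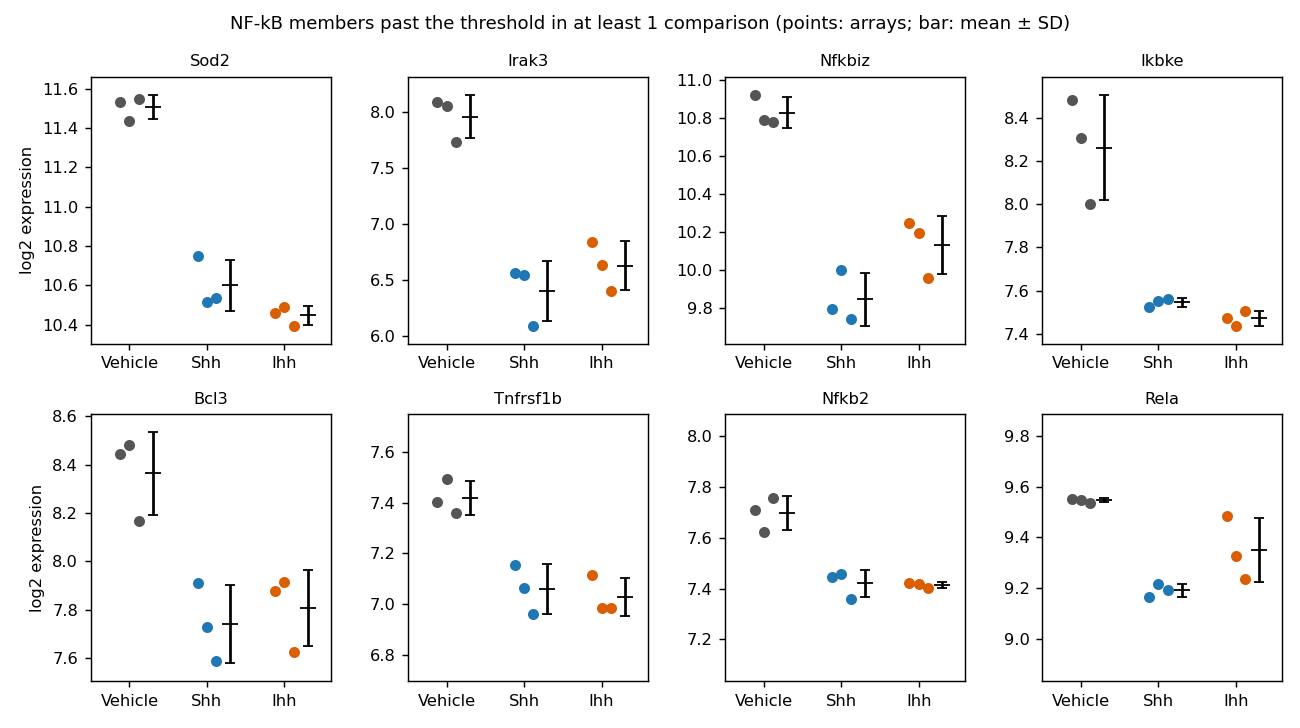
Log2 expression of the 8 members past the threshold in at least 1 comparison, with each array as a point and the mean ± SD of 3 arrays beside it; the vertical scale differs between panels. Treated arrays lie below all Vehicle arrays in every panel, by the most for Irak3, and the Ihh arrays of Rela spread from 9.24 to 9.48.

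Of the 6 kinases measured, 1 fell, against 1.07% of all genes. Ikbke encodes IKK-epsilon, an inducible kinase related to TBK1 that acts on interferon regulatory factors as well as on NF-kB. It was at 8.48, 8.31 and 8.0 log2 with Vehicle, at 7.52, 7.55 and 7.56 with Shh and at 7.47, 7.44 and 7.51 with Ihh. The 6 treated arrays lay within 0.13 log2 of each other and below all Vehicle arrays, while Vehicle itself spread over 0.48 log2. Ikbke changed by -0.75 ± 0.09, or 1.68-fold lower (adjusted p = 0.00286).

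The constitutive kinases did not pass the test, with narrow intervals. Ikbkb, the catalytic kinase of the canonical complex, differed by -0.13 with a 95% interval of -0.27 to 0.01 (adjusted p = 0.399). Tbk1, the constitutive relative of Ikbke, differed by -0.09 (-0.23 to 0.04, adjusted p = 0.566), and Irak1, which relays Toll-like and interleukin 1 receptor signals, by 0.01 (-0.12 to 0.14, adjusted p = 0.972). Map3k14 encodes NIK, the kinase that starts non-canonical processing of p100, and was at 5.89 to 6.06 with Vehicle and 6.01 to 6.27 with the ligands. Its difference of 0.19 ± 0.06 (unadjusted p = 0.0114, adjusted p = 0.189 from limma) was the highest of the members. The dimmer probe set of Map3k14 differed by -0.01 (adjusted p = 0.97 when tested singly). Map3k8, a kinase of the TNF and Toll-like receptor response, was at 6.37 and 6.29 on Vehicle 1 and Vehicle 2 but 5.66 on Vehicle 3, while the ligand arrays held 5.40 to 5.74. It differed by -0.50 ± 0.14 (adjusted p = 0.13), and the groups overlapped through Vehicle 3.

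Among the ligand and its receptors, 1 of 3 fell, against 1.07% of all genes. Tnfrsf1b encodes TNFR2, the receptor that recruits TRAF2 without a death domain and is expressed mainly on immune and endothelial cells. It was at 7.40, 7.49 and 7.36 log2 with Vehicle, at 7.15, 7.06 and 6.96 with Shh and at 7.11, 6.98 and 6.98 with Ihh. The groups did not overlap, and Tnfrsf1b fell by 0.38 ± 0.06 (adjusted p = 0.0163), but not when Vehicle 1 or Vehicle 2 was left out (adjusted p up to 0.0975). Its other probe set went the other way, at 0.07 (adjusted p = 0.825 when tested singly), and the mean of both gave -0.15 (adjusted p = 0.292).

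Tnfrsf1a encodes TNFR1, the widely expressed receptor with a death domain, and differed by -0.15 ± 0.06 (adjusted p = 0.262). The cytokine gene Tnf was at 6.62, 6.68 and 6.68 log2 with Vehicle, at 6.74, 6.67 and 6.64 with Shh and at 6.39, 6.38 and 6.49 with Ihh. The Shh arrays overlapped Vehicle and the Ihh arrays lay below both. For both ligands the difference was -0.11 (-0.22 to 0.00, adjusted p = 0.37).

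Of the 6 adaptors and survival proteins limma called 0, against 1.51% of all genes. At an unadjusted p under 0.05, against 8.41% of all genes, 1 of the 6 was lower. That gene was Birc3, or cIAP2, a ubiquitin ligase that NF-kB induces and that protects cells from TNF-driven death. It was at 9.57, 9.60 and 9.54 log2 with Vehicle, at 9.31, 9.36 and 9.39 with Shh and at 9.33, 9.34 and 9.12 with Ihh, apart on every array. The difference was -0.26 ± 0.06 (adjusted p = 0.0624). Its relative Birc2 differed by -0.15 (adjusted p = 0.474), and Cflar, which blocks caspase 8, by -0.16 (adjusted p = 0.407). The adaptors Traf1, Traf2 and Traf6 differed by -0.07, 0.03 and -0.06, with adjusted p from 0.798 to 0.836, and the arrays of each ligand overlapped those of Vehicle.

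Of the 4 effector targets 1 fell, against 1.07% of all genes. Sod2, the mitochondrial superoxide dismutase and a standard NF-kB target, was at 11.53, 11.44 and 11.55 log2 with Vehicle, at 10.75, 10.51 and 10.54 with Shh and at 10.46, 10.49 and 10.39 with Ihh. The lowest Vehicle array stood 0.69 log2 above the highest treated array. Sod2 fell by 0.98 ± 0.06, or 1.98-fold (adjusted p = 4.58e-05), the smallest adjusted p of the members. Of its 4 probe sets 3 passed the threshold when tested singly, at -0.98, -1.01 and -0.88, and the dimmest, at 5.0 to 5.68 log2, differed by -0.19.

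The adhesion molecules of activated endothelium and stroma did not pass the test. Icam1, which binds leukocyte integrins, was at 7.40, 7.17 and 7.19 log2 with Vehicle, at 7.36, 7.49 and 7.06 with Shh and at 6.99, 6.98 and 7.18 with Ihh. The groups overlapped, and the difference was -0.08 with a 95% interval of -0.29 to 0.14 (adjusted p = 0.809). Vcam1, the ligand of the integrin VLA-4, was at 8.01, 8.05 and 7.84 with Vehicle, at 8.0, 8.16 and 7.69 with Shh and at 7.67, 7.87 and 7.70 with Ihh. Its groups overlapped too, at -0.12 (-0.34 to 0.10, adjusted p = 0.682). The interval of Sod2 for the same comparison was -1.12 to -0.84 and overlapped neither of these. Tnfaip2, a TNF-induced gene of membrane nanotubes, lay below Vehicle on every treated array, but by a gap of only 0.004 log2. Its difference was -0.29 ± 0.08 (adjusted p = 0.13).

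**Figure D3:**
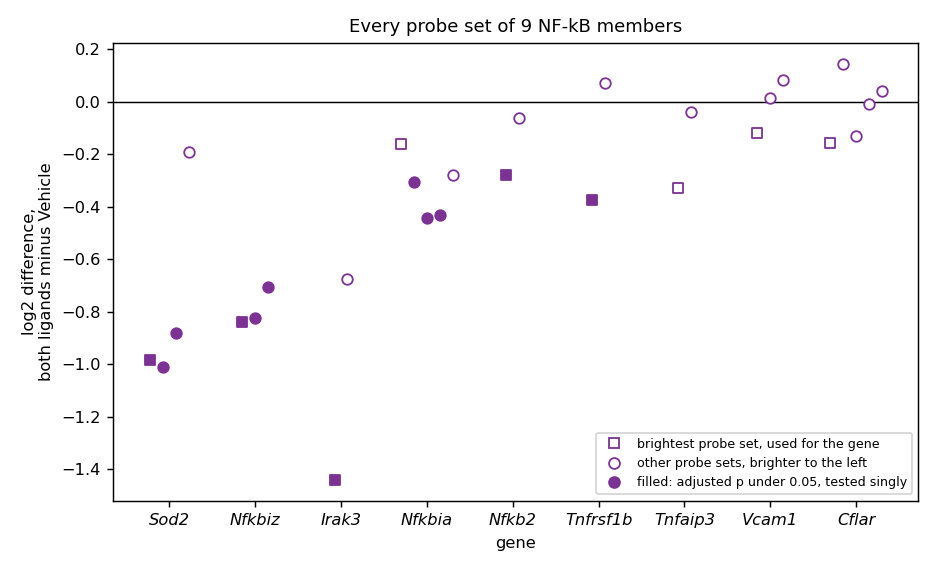
Log2 difference of both ligands against Vehicle for every probe set of 9 members; squares are the brightest probe set, used for the gene, circles the others, brighter to the left, and filled symbols passed an adjusted p of 0.05 when tested singly. The probe sets of Nfkbiz lie together, 3 of the 5 of Nfkbia passed although its brightest did not, and those of Tnfrsf1b fall on both sides of 0.

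Probe sets of one gene share its transcript and are not replicates. Of the 20 members with several probe sets, 12 had every probe set below 0, 8 had probe sets on both sides of 0 and 54 of the 71 probe sets in all were below 0. Among the 8 were Ikbkb, Map3k14, Irak1, Traf6, Cflar and Vcam1, none of which had a probe set past the threshold.

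Each ligand was then compared with Vehicle on its own. Both comparisons use the same 3 Vehicle arrays, so their results are not independent. With Shh, 8 members fell and 0 rose, against 1.73% of all genes past the threshold, 1.24% lower and 0.489% higher. With Ihh, 5 fell and 0 rose, against 0.649% of all genes, 0.456% lower and 0.192% higher. On every array of the ligand, 17 members lay below Vehicle and 1 above with Shh (11.4% and 9.56% of all genes), and 18 below and 0 above with Ihh (8.15% and 5.67%). At an unadjusted p under 0.05, 19 members were lower and 1 higher with Shh (10.7% and 8.06% of all genes), and 18 lower and 0 higher with Ihh (5.63% and 3.56%). The member above Vehicle with Shh in both counts was Map3k14, at 0.25 (adjusted p = 0.102). Mean differences were below 0 for 26 members with Shh, against 46.1% of all genes, and for 28 with Ihh, against 54.0%. The median over the members was -0.21 log2 in both comparisons. The 5 members that fell in both were Nfkbiz, Irak3, Ikbke, Tnfrsf1b and Sod2. Nfkb2, Rela and Bcl3 were past the threshold with Shh alone, where their changes were -0.28, -0.35 and -0.62 (adjusted p = 0.0442, 0.0335 and 0.0305). The same genes were at -0.28, -0.20 and -0.56 with Ihh (adjusted p = 0.0709, 0.344 and 0.0735), and no difference between the ligands passed the direct test described next. Same-numbered Vehicle and Ihh arrays deviated from their group means together, and a fit of these 6 arrays in pairs, chosen after seeing the data, called 9 members lower with Ihh and 280 of 18193 genes in all. The 4 members it added were Relb, Bcl3, Tnfaip3 and Tnfaip2 (adjusted p = 0.0231, 0.00803, 0.0299 and 0.0411). Wells were pooled at random and the pairing was read from these same values, so it does not show that these members fell.

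The count with Shh was less stable. It fell to 4 without Vehicle 1, Shh 2, Shh 3 or Ihh 2 and to 3 without Vehicle 2. The Shh call of Nfkb2 ended without any of the 9 arrays, at up to 0.14, that of Rela without 6 of them, at up to 0.126, and those of Bcl3 and Tnfrsf1b without Vehicle 1, Vehicle 2, Shh 2, Shh 3 or Ihh 2, at up to 0.127 and 0.145. Ikbke lost its Shh call without Vehicle 2, at 0.0553. With Ihh the call of Tnfrsf1b ended without Vehicle 1, Vehicle 2, Shh 2 or any 1 Ihh array, at up to 0.179. Nfkbiz, Irak3 and Sod2 kept theirs in both comparisons without any 1 array, as Ikbke did with Ihh.

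**Figure D4:**
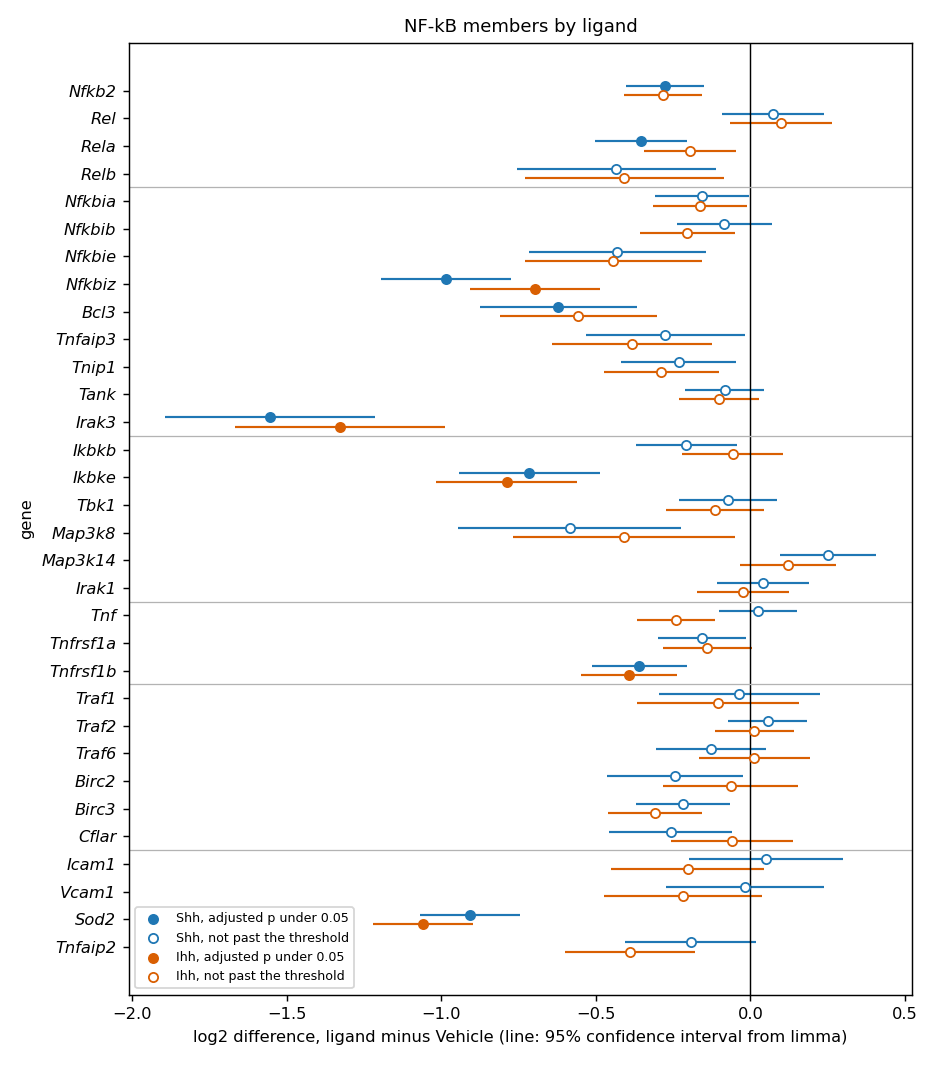
Log2 difference from Vehicle for each of the 32 members with Shh (blue) and Ihh (orange), with the 95% confidence interval from limma as a line and filled points for an adjusted p under 0.05; grey lines separate the roles. The intervals of the ligands overlap for every gene except Tnf, where Shh lies at 0.02 and Ihh at -0.24.

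Shh and Ihh were compared directly to ask whether the ligands differ. Of the 32 members limma called 0, against 0.011% of all genes, of which 0% lay lower and 0.011% higher with Shh. At an unadjusted p under 0.05, Tnf and Icam1 were higher with Shh and Rela and Nfkbiz lower, 2 in each direction, against 7.17% and 5.97% of all genes. The mean difference was below 0 for 12 members, against 44.2% of all genes. Arrays of the ligands did not overlap for 6 members, with Shh above for Ikbke, Tnf and Sod2 and below for Rela, Traf6 and Birc2, against 9.37% and 7.93% of all genes. The lowest p was that of Tnf, at 0.26 log2 higher with Shh (95% interval 0.14 to 0.39, unadjusted p = 0.000888, adjusted p = 0.284). Icam1 differed by 0.25 (0.01 to 0.50, adjusted p = 0.377), with Shh higher. Nfkbiz and Rela lay lower with Shh, by -0.29 (-0.50 to -0.08, adjusted p = 0.308) and -0.16 (-0.31 to -0.01, adjusted p = 0.368). For Sod2 the difference was 0.15 (-0.01 to 0.32) and for Irak3 -0.23 (-0.57 to 0.11), so gaps of up to these bounds between the ligands are not excluded for either gene.

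Pathway genes outside the members were taken from 4 lists of upstream receptors and adaptors, kinase complexes, restraining genes and other targets, with 82 genes measured. Of these 1 rose and 7 fell, or 9.76% called against 1.51% of all genes. Differences below 0 were found for 59, against 49.5% of all genes, and the median was -0.07 log2. Of 21 upstream receptors, ligands and adaptors 1 fell, Tlr2, a receptor for bacterial lipoproteins, from 7.75 to 8.0 log2 with Vehicle to 6.92 to 7.15 with Shh and 6.39 to 6.58 with Ihh (-1.11 ± 0.07, adjusted p = 6.32e-05). Myd88, the adaptor of Toll-like and interleukin 1 receptors, differed by -0.24 (adjusted p = 0.0897). Of 21 genes of the kinase complexes and the ubiquitin machinery limma called 0. At an unadjusted p under 0.05 it gave 4 lower and 0 higher, against 8.41% and 5.25% of all genes.

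Of 18 restraining genes 1 fell, Usp18, which also restrains interferon signalling (-1.98 ± 0.40, adjusted p = 0.0447). It was at 9.06 and 9.09 on Vehicle 1 and Vehicle 2 but 7.23 on Vehicle 3, within the treated range of 5.98 to 7.26, and its call held only without Vehicle 3, ending at up to 0.199 without any other array. Of 22 other classic targets 1 rose and 5 fell, or 27.3% called against 1.51% of all genes. Mmp9, a gelatinase, changed by -0.98 ± 0.12 (adjusted p = 0.00344), and Cebpb, a transcription factor of the acute-phase response, by -0.62 ± 0.08 (adjusted p = 0.00396). Slfn2, a regulator of immune cell quiescence, changed by -0.44 ± 0.07 (adjusted p = 0.0169), but not when Vehicle 1 or Vehicle 2 was left out (adjusted p up to 0.0975). Junb and Ninj1 fell by 0.43 and 0.25, calls lost when any of 5 and 6 arrays was left out (adjusted p up to 0.161 and 0.143). The gene that rose was Cd83, a surface protein of activated antigen-presenting cells, from 6.55 to 6.79 with Vehicle to 7.17 to 7.65 with the ligands (0.71 ± 0.09, adjusted p = 0.00555).

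**Figure D5:**
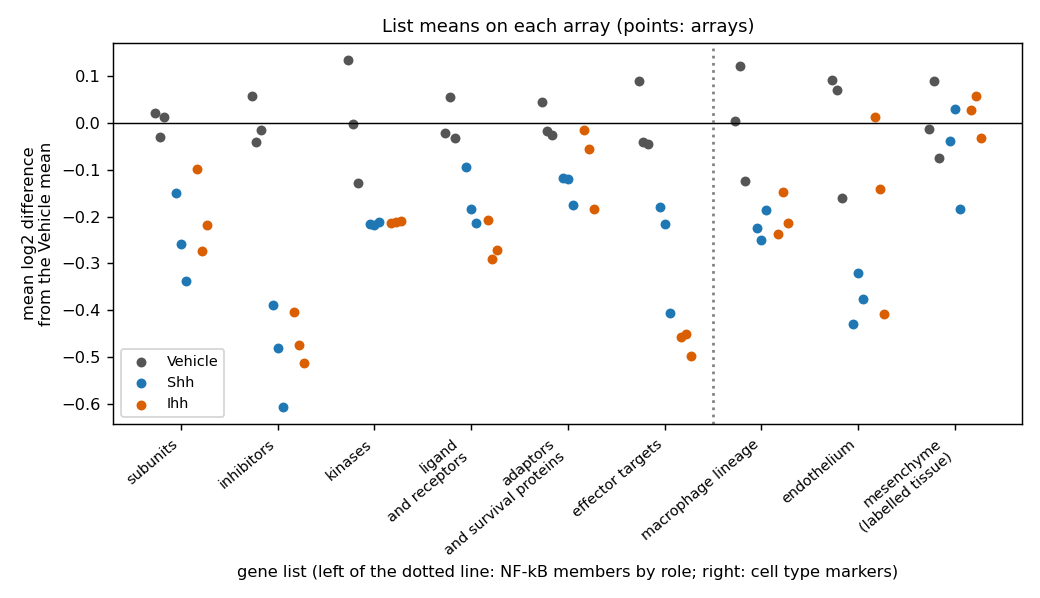
Mean log2 difference from the Vehicle mean over the genes of each list, on each array, for the 6 roles of the NF-kB members (left of the dotted line) and 3 lists of cell type markers (right). The inhibitors and restraining proteins, a list that also holds nuclear cofactors, lie at -0.61 to -0.39 on the treated arrays, and macrophage markers at -0.25 to -0.15.

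Some markers of macrophages moved with the treatment as well, in both directions. Averaged over the 32 members, the treated arrays lay at -0.36 to -0.22 log2 from the Vehicle mean, and Vehicle at -0.04 to 0.06. Of 20 macrophage markers 5 fell and 2 rose, or 35% called against 1.51% of all genes. Their mean lay at -0.25 to -0.15 with the ligands and at -0.12 to 0.12 on the Vehicle arrays. On this mean each treated array lay below every Vehicle array. Taken singly, 7 markers lay below Vehicle on every treated array and 3 above, against 3.80% and 2.67% of all genes. The median of the 20 differences was -0.07, with 10 below 0 and 10 above. The log2 of the summed level of the 20 markers was 14.999 to 15.08 with the ligands and 15.05 to 15.23 with Vehicle, ranges that overlap. The markers that fell were Cd14, Adgre1, Itgam, Cybb and Lyz2, at -1.66, -1.04, -0.91, -0.90 and -0.26. Those that rose were Laptm5 and Cx3cr1, at 0.37 and 0.87, and Csf1r differed by 0.00 (adjusted p = 0.995). The calls of Lyz2, Laptm5 and Cx3cr1 ended without 8, 8 and 6 of the 9 arrays taken singly, at up to 0.19, 0.143 and 0.167. The part of macrophages in the falls of Irak3, Sod2 and the other members was not tested.

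Other cell types stood as follows for both ligands. Of all genes limma called 1.51% in this comparison, and 8.41% lay lower and 5.25% higher before adjustment. Of 10 endothelium markers limma called 0, with 6 lower and 0 higher before adjustment, and the list mean lay at -0.43 to 0.01 on the treated arrays and -0.16 to 0.09 with Vehicle. With Shh alone it lay at -0.43 to -0.32, below every Vehicle array, and 6 of the 10 markers were apart lower, against 11.4% of all genes. Cdh5, the endothelial cadherin, fell by 0.59 with Shh (adjusted p = 0.0464), and no fit without 1 array is given for this call. Of 6 markers of enteric glia and neurons limma called 0 for both ligands, with 3 lower and 1 higher before adjustment. With Shh alone, 5 of these 6 were lower and 1 higher before adjustment, against 10.7% and 8.06% of all genes. The list mean of the 6 lay at -0.31 to -0.21, below every Vehicle array (-0.13 to 0.12). With Ihh alone both list means overlapped Vehicle, at -0.41 to 0.01 for endothelium and -0.22 to 0.12 for glia and neurons. The part of these cells in the Shh results, Tnfrsf1b among them, was not tested. Of 10 epithelium and 6 mesothelium markers limma called 0, with 0 higher in either list and 0 and 1 lower before adjustment. The 12 mesenchyme markers had 0 called by limma (2 higher and 3 lower unadjusted), with list means of -0.18 to 0.06 and -0.07 to 0.09. Of 8 neutrophil, 8 lymphocyte and 6 mast cell markers limma also called 0, with 0 higher and 3 lower unadjusted in all. The log2 of the summed level of neutrophil markers was 9.22 to 9.72 with Vehicle and 9.15 to 9.80 with the ligands. As a measure of RNA integrity, the level of Gapdh at its 3' end minus that at its 5' end was -0.08 to 0.03 log2 with Vehicle, -0.18 to -0.15 with Shh and -0.19 to -0.04 with Ihh. The same measure of beta-actin was 0.15 to 0.28 with Vehicle and 0.12 to 0.18 with the ligands. The part of RNA integrity in the results was not tested.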

How the data were processed

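The authors deposited log2 levels of 45101 probe sets on each of 9 Affymetrix arrays of biotin-labelled cRNA from 6 ug of total RNA. Per the submitters' processing notes the authors used GCOS and RMA, a method of background correction, normalization between arrays and summary of probes. Their versions are not given in the sources read here. The log2 scale was read from the values (2.78 to 14.20). RMA assumes like distributions on all arrays, so a shift of all genes cannot show, and it compresses low levels. Arrays have no read depth, and their number limits the precision.

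Of the probe sets, 34945 had 1 gene symbol in the platform annotation, 932 several, 9160 none, and 64 were controls. Updating through RefSeq's GRCm38.p6 table altered 0 symbols. Each gene was read from its brightest single-symbol probe set. Group means of all 9 arrays were fitted with lmFit and eBayes of limma 3.58.1 (R 4.3.3), with two-sided p-values, adjusted by Benjamini-Hochberg over 18193 genes in each of 4 comparisons, and a threshold of 0.05. Every adjusted p is from limma. Deviations of same-numbered arrays from their group means correlated at 0.226 to 0.543 between Vehicle and Ihh, and at -0.297 to 0.141 in pairs with Shh. Differently numbered Vehicle and Ihh arrays reached 0.218 (Vehicle 1 with Ihh 2). Wells were pooled at random, so the numbers of the labels need not link pools of different treatments. The main fit holds no block, and the pairing of Vehicle and Ihh, read from these same values, is an alternative only. Probe sets tested singly were adjusted over all 34945. The fit was run on simulated data with independent noise on each gene and array, where 4.21% of the calls for both ligands were false. These simulated data held no array effects or shifts in cell types, so they do not measure how stable the calls are here. Alternatives were a replicate block, median centring, another quantile normalization, a filter on dim genes, other choices of probe set, another variance model, array weights and leaving out each array.

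Named with values on every array were members past the threshold in any comparison, the subunits, Nfkbia, Tnfaip3, Tnf, Icam1 and Vcam1. From each pathway list at most 4 called genes were named. Birc3, Map3k8, Map3k14, Myd88, Junb, Ninj1 and the members without a call fell outside this rule or are given in brief. The members, lists and tests were chosen with earlier results of these data known.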

Additional observations from a re-analysis of the deposited data

How the results depend on the processing

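The counts were recomputed with 9 to 11 alternatives per comparison and without each array in turn. For both ligands 7 members were called, and 6 to 14 under the alternatives, where array weights gave 14 (13 lower and Map3k14 higher), and 4 to 8 without 1 array. For Shh the main count was 8, the alternatives gave 5 to 10, with 5 from a second quantile normalization, and leaving out 1 array gave 3 to 8. For Ihh the main count was 5, the alternatives gave 4 to 10, and leaving out 1 array gave 4 to 7. Array weights gave the 10 with Ihh, and the pairs of Vehicle and Ihh arrays as a replicate block gave 9. Between the ligands all of these gave 0. The fit on the arrays of the groups compared is the main fit for both ligands and has no value of its own there. Over all genes, the 274, 314 and 118 calls for both ligands, Shh and Ihh became 1126, 1017 and 498 with array weights, and ranged over 99 to 416, 80 to 675 and 53 to 229 without 1 array. By their deviations from group means, 6 of 9 arrays correlated best with their own number. Ihh 2 correlated best with Shh 3 (0.238, against 0.226 with Vehicle 2), so a pairing by number is not established. A replicate block over all 9 arrays gave 9, 9, 6 and 0 members for both ligands, Shh, Ihh and Shh against Ihh, and 379, 522, 122 and 2 of all genes. Of 267 refits of 15 named members, 244 kept their side of the threshold, 13 lost a call, 10 gained one and 0 changed sign. The cause of these changes was not tested. Rel, Map3k8 and Traf1 reached below the array medians, where differences may be understated.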
